A study of Mus musculus with 12 samples.

Results

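Medium conditioned by p53 wild-type WEP breast cancer cells was compared with regular adipogenic differentiation in 3T3-L1 cells, an established mouse preadipocyte line. The comparison holds 6 of the 12 libraries of the series: 3 libraries of cells differentiated in the conditioned medium, called WT CM cells, and 3 libraries of regularly differentiated cells, called Regular cells. All 6 were chosen by their labels, and every gene measured in them was considered. The remaining libraries, 3 of cells differentiated in medium of p53-knockout WEP cells (KO CM cells) and 3 of undifferentiated preadipocytes, are used here to place the levels. The knockout of p53 was made in the cancer cells alone, so the Trp53 level of the sequenced cells checks no label.

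WT CM cells received, at each step of differentiation, a 1:1 mixture of the step's medium and filtered medium from the cancer cells. Regular cells received the undiluted media: 0.5 mM isobutylmethylxanthine, which raises cyclic AMP, 1 µg/mL insulin, 1 µM dexamethasone, a glucocorticoid, and 2 µM rosiglitazone, which activates PPARgamma, for 2 days, then insulin for 2 days, then maintenance medium with 10% fetal bovine serum. KO CM cells were treated like WT CM cells. Undifferentiated cells were kept in calf serum, so serum changed together with differentiation. Because the inducers were diluted in WT CM cells and not in Regular cells, the effect of this dilution and the effect of cancer cell products cannot be told apart. No label states whether replicates came from separate cultures, and p-values therefore measure only how these libraries vary, which may be technical variation.

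During adipogenesis the inducers first switch on early C/EBP factors, which then turn on PPARgamma and C/EBPalpha. These factors maintain each other and activate genes for lipid droplets, lipid synthesis, insulin-stimulated glucose uptake and adipokines, while mitochondria multiply and fibroblast genes for matrix and chemokines recede. Inflammatory signals that act through NF-kappaB are known to oppose this programme, and adipocytes and fibroblasts exposed to them secrete acute phase proteins and chemokines.

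RNA was measured by MARS-seq, a method that sequences transcript 3′ ends and counts each molecule once by its unique identifier (UMI). The totals were 1551876, 1616691 and 2278126 UMIs in WT CM cells and 1101307, 2589045 and 1675276 UMIs in Regular cells. Of 11022 genes, 9378 were tested with edgeR's quasi-likelihood test, and a gene is said to have risen or fallen where its Benjamini-Hochberg adjusted p was under 0.05. Levels are UMI counts scaled to 1000000 UMIs per library (CPM), and differences are log2 fold changes of WT CM over Regular cells ± SE unless stated. WT CM replicate 3 stood apart: of 3642 genes with at least 50 CPM, 25 differed more than 2-fold from the other libraries of the group, 21 of them below, against 0 to 7 genes in any other library. Gapdh, a glycolytic enzyme gene with many processed copies, had 3122, 3271 and 114 CPM in WT CM cells, against 2868, 2698 and 2847 CPM in Regular cells. Eno1, Pgk1, Cox8a and ribosomal protein genes were among the other genes of that library. Gapdh also lay more than 2-fold above the other libraries of its group in undifferentiated replicate 1 and in KO CM replicate 3. The cause was not tested.

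Many adipocyte and mitochondrial genes were lower in WT CM than in Regular cells, and many fibroblast, matrix and inflammatory genes were higher. A total of 1614 genes rose (17.2% of those tested) and 1441 fell (15.4%), with a median over all tested genes of 0.01 on the log2 scale. The rises were larger, 682 genes rising and 218 falling by more than 2-fold, and 86 and 9 by more than 8-fold. Without WT CM replicate 3, 1455 genes rose and 1283 fell. Among the authors' own calls in their deposited table, 1243 genes were higher and 1131 lower in WT CM cells, of which 1191 and 1110 were also called here, and 0 genes were called in opposite directions. Against undifferentiated cells, 2612 genes were higher in WT CM cells (27.9%) and 1942 lower (20.7%), or 1904 and 3000 with libraries scaled by total counts. KO CM cells had 550 genes higher than WT CM cells (5.86%) and 624 lower (6.65%), or 357 and 817 with that scaling. These comparisons share the WT CM libraries, so their values are set side by side and are not independent.

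**Figure D1:**
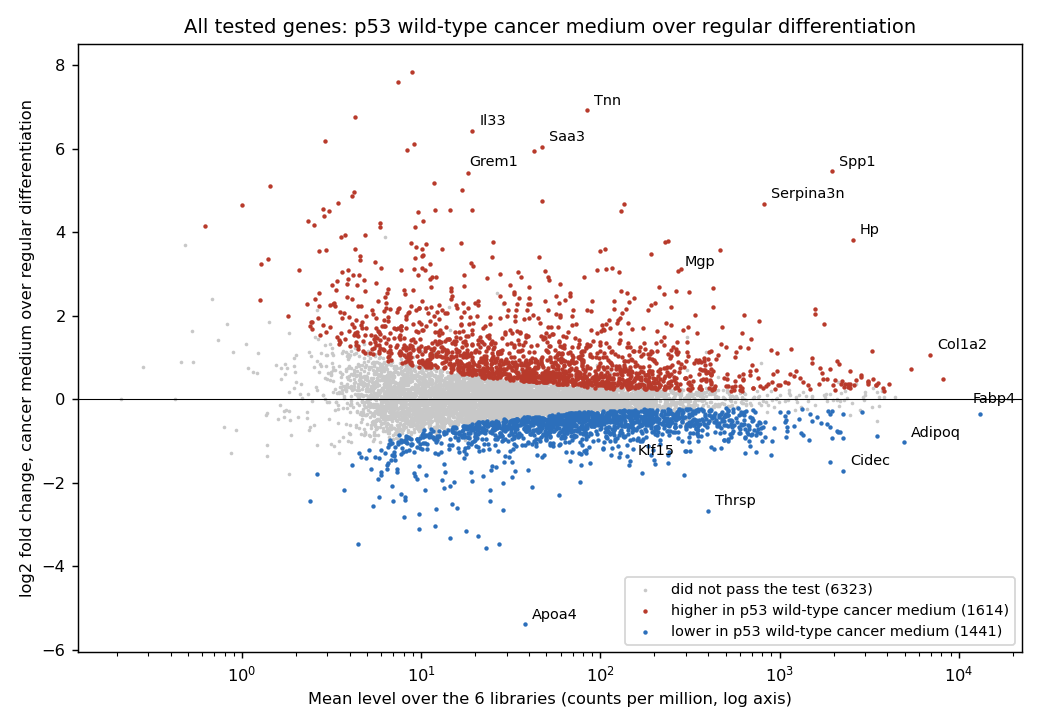
Each point is a tested gene, placed by its mean level over the 6 libraries (CPM, log axis) and its log2 fold change of WT CM over Regular cells, with red and blue for genes that rose and fell and grey for the rest. The rises reach beyond 6 on the log2 scale (Tnn, Il33, Saa3) whereas Apoa4 alone falls beyond 5, and the fitted values of genes with no count in Regular cells depend on the model and are no bounds.

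The largest rises were in genes of secreted and cell-surface signals and of matrix. Tnn, which encodes the matrix protein tenascin-W (chromosome 1, 160085029 to 160153580, minus strand, GRCm38), had 176, 139 and 186 CPM in WT CM cells, against 1.82, 1.16 and 1.19 CPM in Regular cells. It rose by 6.92 ± 0.23 (adjusted p = 2.51e-27). Undifferentiated cells averaged 4.59 CPM, so the level in WT CM cells was also above that of preadipocytes (5.15 on the log2 scale). Grem1, a secreted antagonist of bone morphogenetic proteins (chromosome 2, 113746164 to 113758646, minus strand), had 91.6, 61.6 and 98.3 CPM in WT CM cells, against 1.82, 0.776 and 1.78 CPM in Regular cells, a rise of 5.93 ± 0.32. Spp1, which encodes osteopontin, had 3634, 3713 and 4146 CPM in WT CM cells, against 91.0, 87.0 and 82.6 CPM in Regular cells. No library of either group reached the range of the other for these genes, as the rule that names them requires.

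Several of these genes were without counts in Regular cells, where a fold change can only be bounded against 3 counts over the group. Pla1a, a secreted phospholipase gene, had 17.0, 14.1 and 21.9 CPM in WT CM cells and was at least 31.6-fold higher than in Regular cells. Tnfsf11, the gene of RANKL, the cytokine that drives osteoclast formation, had 13.6, 13.5 and 17.6 CPM in WT CM cells and was at least 26.5-fold higher. It had no counts in undifferentiated cells either. Mmp3, which encodes the matrix protease stromelysin, was at least 15.3-fold higher and Edn1, which encodes the vasoconstrictor endothelin, at least 10.4-fold. Edn1 averaged 5.83 CPM in WT CM cells and 10.9 CPM in undifferentiated cells, and was lower than in preadipocytes (adjusted p = 0.037).

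The rest of the 12 largest rises were Il33, Gpr176, Saa3, Tnfrsf9 and Chil1. The alarmin gene Il33 had 38.7, 30.8 and 45.6 CPM in WT CM cells, against 0, 0.776 and 0 CPM in Regular cells, and 78.8 CPM on average in KO CM cells. Chil1, which encodes a secreted chitinase-like glycoprotein, averaged 35.5 ± 4.64 CPM in WT CM cells and 0.829 ± 0.406 CPM in Regular cells (SD, n = 3 each), and had no counts in undifferentiated cells. Tnfrsf9, a costimulatory receptor gene that is also used as a beige fat marker, averaged 16.3 ± 4.15 CPM in WT CM cells and 0.303 ± 0.525 CPM in Regular cells. Of these 12 genes, 7 were higher still in KO CM cells, as were 5.86% of all tested genes. Against undifferentiated cells, 10 were higher in WT CM cells and 1 was lower, against 27.9% and 20.7% of all tested genes. The 12 were chosen by high values in the same WT CM libraries, so part of this excess comes from the selection. The 12 genes had adjusted p of at most 5.322e-06.

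The largest falls included genes of metabolic enzymes and of transport proteins. Apoa4, an apolipoprotein gene (chromosome 9, 46240696 to 46243459, plus strand), had 1.36, 1.92 and 1.76 CPM in WT CM cells, against 62.8, 71.4 and 87.3 CPM in Regular cells. It fell by 5.39 ± 0.29 (adjusted p = 7.26e-20), the only gene of the 12 with a fall beyond 4. The alcohol dehydrogenase gene Adh1 had 6.79, 4.49 and 2.63 CPM in WT CM cells, against 46.4, 43.1 and 58.8 CPM in Regular cells. Thrsp, a regulator of fatty acid synthesis (chromosome 7, 97412938 to 97417730, minus strand), had 119, 99.4 and 106 CPM in WT CM cells, against 688, 672 and 702 CPM in Regular cells, and fell by 2.67 ± 0.10. The water channel gene Aqp2 fell by 3.56 ± 0.28, the IGF carrier gene Igfals by 3.27 ± 0.30, the transferrin gene Trf by 3.04 ± 0.40 and the cytochrome P450 gene Cyp2e1 by 2.81 ± 0.43. Fmo1, a monooxygenase gene, averaged 3.66 CPM in WT CM and 32.0 CPM in Regular cells. Lrrc75b, Fam107a, S100b and Camsap3 completed the 12. Of the 12, 9 were higher in WT CM than in undifferentiated cells and 1 was lower, against 27.9% and 20.7% of all tested genes. In KO CM cells 0 of the 12 were higher than in WT CM cells and 1 was lower, against 5.86% and 6.65%. These genes were chosen by values of the same WT CM libraries, so the shares of all tested genes are no fair measure for them.

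**Figure D2:**
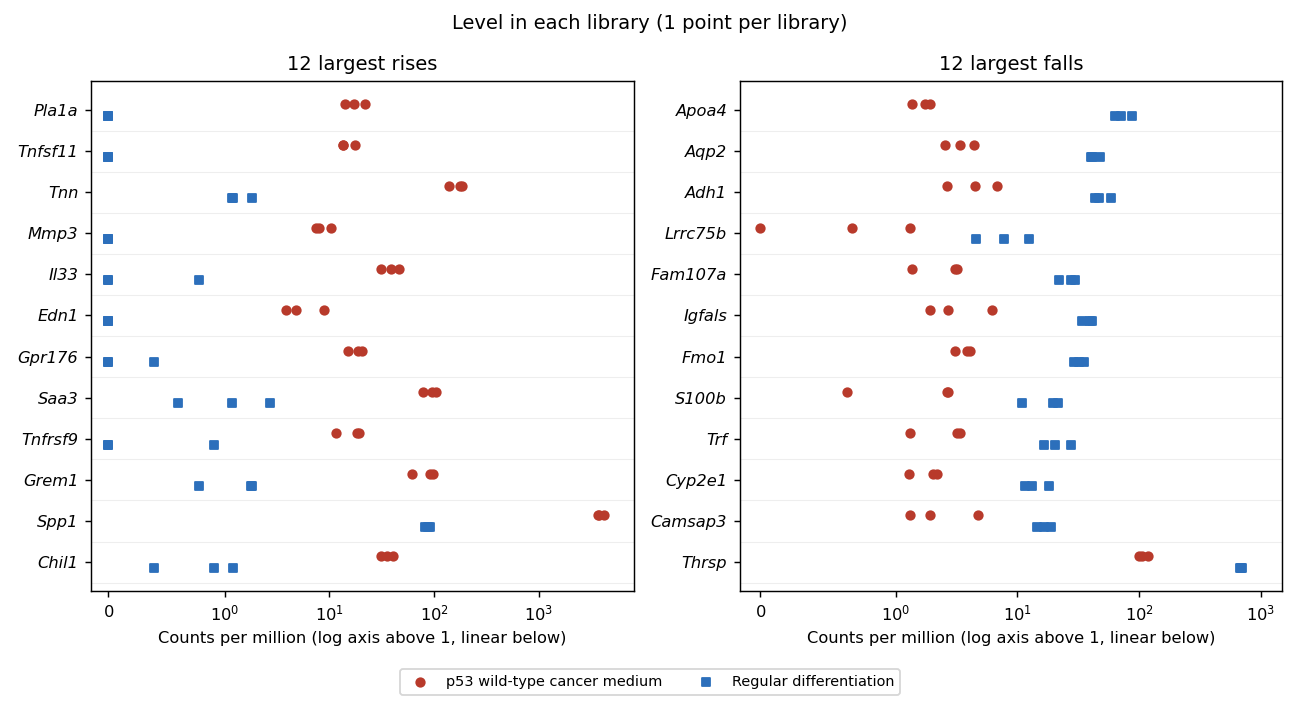
Levels in each library (CPM, log axis above 1, linear below) are shown for the 12 genes with the largest rise and the 12 with the largest fall among called genes with at least 5 CPM in the higher group. WT CM libraries are red circles drawn above the blue squares of Regular libraries, and no gene has overlapping groups, since that was required for its selection.

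The central adipogenic factors were lower in WT CM cells. Pparg, the master regulator of adipogenesis, had 442, 489 and 537 CPM in WT CM cells, against 772, 798 and 829 CPM in Regular cells. Cebpa, its partner, had 194, 172 and 195 CPM in WT CM cells, against 251, 266 and 285 CPM in Regular cells. They fell by 0.71 ± 0.08 (adjusted p = 2.23e-09) and 0.52 ± 0.10 (2.42e-05), with no overlap between the groups. Klf15, which acts late in adipogenesis and is a glucocorticoid target, had 71.3, 82.1 and 80.8 CPM in WT CM cells, against 219, 222 and 208 CPM in Regular cells, a fall of 1.47 ± 0.10. Of 18 tested adipogenic transcription factors, 8 fell (44.4%) and 3 rose (16.7%), with a median of -0.47. Of all tested genes, 15.4% fell and 17.2% rose. Among those that fell were also the coactivator gene Ppargc1b (-1.81 ± 0.35), the sterol and lipid regulator Srebf1 (-0.46 ± 0.10) and the preadipocyte commitment factor Zfp423 (-1.12). Klf4, an early adipogenic factor, rose by 0.85 ± 0.13 and averaged 85.8 CPM in WT CM, 47.8 CPM in Regular and 265 CPM in undifferentiated cells. The other rises were those of Cebpb (0.21) and Gata2, a factor that restrains adipogenesis (1.73). Both calls were lost with DESeq2 (adjusted p = 0.13719 and 0.052819) and without WT CM replicate 3 (0.15119 and 0.059283) or Regular replicate 1 or 3. Cebpb was also lost with total counts (0.11117) and without Regular replicate 2 or WT CM replicate 1, and Gata2 without WT CM replicate 2. Fewer adipocytes in the culture and less RNA of these genes per adipocyte cannot be told apart in these bulk libraries.

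Genes that store and release fat were mostly lower in WT CM cells. Cidec, whose protein makes lipid droplets fuse (chromosome 6, 113424634 to 113435760, minus strand), had 1079, 1071 and 1025 CPM in WT CM cells, against 3723, 3368 and 3305 CPM in Regular cells. It fell by 1.71 ± 0.09 (adjusted p = 7.67e-21). G0s2, an inhibitor of adipose lipolysis, had 524, 476 and 513 CPM in WT CM cells, against 1397, 1248 and 1202 CPM in Regular cells. Of 19 tested genes of lipid droplets and lipolysis, 11 fell and 1 rose, with a median of -0.62, and all 19 were higher in WT CM than in undifferentiated cells. The member that rose, the droplet coat gene Plin3 (0.31 ± 0.10), was not called with DESeq2 (adjusted p = 0.092254) or without Regular replicate 2 (0.098585) or WT CM replicate 1 (0.092852), and 3 members rose with the 6 libraries alone. The lipase gene Pnpla2, whose product G0s2 inhibits, fell by 0.52 ± 0.08, the hormone-sensitive lipase gene Lipe by 0.62 ± 0.15, the droplet coat gene Plin1 by 0.70 ± 0.10 and the glycerol channel gene Aqp7 by 1.27. Among 23 genes that make fatty acids and triglycerides, 17 fell and 0 rose. Dgat2, which makes triglyceride, had 129, 121 and 136 CPM in WT CM cells, against 502, 437 and 430 CPM in Regular cells, a fall of 1.82 ± 0.12. Gpd1, which supplies the glycerol backbone, had 1029, 881 and 1077 CPM in WT CM cells, against 2885, 2883 and 2758 CPM in Regular cells. Pck1, the enzyme of glyceroneogenesis, fell by 2.16 ± 0.24, and the desaturase gene Scd1 by 0.28.

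Fatty acid uptake and adipokines were mixed. The carrier gene Fabp4 had 11349, 11799 and 11310 CPM in WT CM cells, against 15331, 13909 and 14651 CPM in Regular cells, a fall of 0.35 ± 0.07. Lipoprotein lipase (Lpl) fell by 0.65 ± 0.09 and the activating enzyme gene Acsl1 by 0.86 ± 0.09. The fatty acid transporter gene Cd36 had 56.3, 69.9 and 84.7 CPM in WT CM cells, against 79.2, 76.1 and 80.8 CPM in Regular cells, and these ranges overlapped (-0.14 ± 0.19, adjusted p = 0.631). In KO CM cells Cd36 averaged 20.3 CPM and was lower than in WT CM cells by 1.88 on the log2 scale (adjusted p = 1.7e-05). Of 13 tested genes of fatty acid uptake and activation, 6 fell (46.2%) and 3 rose (23.1%), against 15.4% and 17.2% of all tested genes. The 3 that rose were Acsl4, Acsl5 and Scarb1, but 0 rose with DESeq2 or without WT CM replicate 3 and 1 without Regular replicate 3. Of 11 adipokine genes, 6 fell and 4 rose. Retn, the resistin gene, had 441, 435 and 432 CPM in WT CM cells, against 1060, 977 and 1090 CPM in Regular cells. Adipoq, the adiponectin gene, fell by 1.03 ± 0.09 and Cfd, the adipsin gene, by 0.89 ± 0.16. Angptl4, a secreted lipase inhibitor and a PPARgamma target, was higher, with 2135, 2086 and 1834 CPM in WT CM cells, against 998, 1051 and 989 CPM in Regular cells. It rose by 0.99 ± 0.08 (adjusted p = 3.46e-14), and C1qtnf1, which encodes a secreted relative of adiponectin, by 3.04 ± 0.58. Rarres2, the chemerin gene, and Apln, the apelin gene, also rose, by 0.75 ± 0.09 and 0.75 ± 0.13.

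Genes of insulin-stimulated glucose uptake fell at several steps. Slc2a4, which encodes the insulin-responsive transporter GLUT4, had 106, 112 and 110 CPM in WT CM cells, against 285, 274 and 265 CPM in Regular cells, a fall of 1.33 ± 0.09 (adjusted p = 8.8e-16). The receptor substrate genes Irs1 and Irs2 fell by 0.85 ± 0.17 and 0.53 ± 0.10, and Trarg1, which helps GLUT4 traffic, by 0.87. Of 17 tested genes of the insulin pathway, 9 fell (52.9%) and 4 rose (23.5%), against 15.4% and 17.2% of all tested genes. Igf1r, the receptor gene of insulin-like growth factor, had 23.1, 34.6 and 32.5 CPM in WT CM cells, against 9.10, 14 and 11.3 CPM in Regular cells, and rose by 1.33 ± 0.23. Grb14, an inhibitor of the insulin receptor, rose by 1.31 ± 0.25, the kinase gene Akt1 by 0.32 ± 0.09 and Slc2a1, the basal glucose transporter gene, by 0.46 ± 0.12. The insulin receptor gene Insr had 9.50, 13.5 and 12.3 CPM in WT CM cells, against 5.46, 3.49 and 9.50 CPM in Regular cells, and did not pass the test (1.00 ± 0.41, adjusted p = 0.0573).

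Most tested genes fell in the lists of nuclear-encoded mitochondrial proteins examined here. Of 35 tested subunits of respiratory complex I, 31 fell and 0 rose (88.6% lower, against 15.4% of all tested genes). So did 18 of 19 genes of complexes III and IV, 13 of 16 of the ATP synthase and 46 of 67 mitochondrial ribosomal proteins, where 1 rose, Mrpl33 (0.37 ± 0.10), or 2 without WT CM replicate 3. The medians lay between -0.68 and -0.43. Cyc1, the cytochrome c1 gene of complex III, had 411, 494 and 388 CPM in WT CM cells, against 918, 903 and 975 CPM in Regular cells, and fell by 1.11 ± 0.09 (adjusted p = 1.2e-14). Ndufab1, a complex I subunit and acyl carrier, had 257, 274 and 251 CPM in WT CM cells, against 580, 594 and 542 CPM in Regular cells. Neither pair of groups overlapped. Undifferentiated cells averaged 245 CPM of Cyc1 and 116 CPM of Ndufab1, below WT CM cells in both (adjusted p = 1.5e-10 and 3.5e-14).

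Most tested genes in the lists of fuel-oxidising enzymes were lower as well. Of 22 genes of pyruvate and the TCA cycle, 20 fell, among them Pdhb of pyruvate dehydrogenase (-1.24 ± 0.10). Idh2, the NADP-dependent isocitrate dehydrogenase gene, alone rose, with 534, 478 and 485 CPM in WT CM cells, against 334, 347 and 303 CPM in Regular cells (0.60 ± 0.08). Of 16 genes of branched-chain amino acid breakdown, 14 fell and 0 rose, among them the transaminase gene Bcat2, with 70.6, 61.6 and 76.4 CPM in WT CM cells, against 182, 202 and 166 CPM in Regular cells. Of 21 genes of fatty acid oxidation, 16 fell and 2 rose. Acadm, the medium-chain dehydrogenase gene, had 354, 357 and 316 CPM in WT CM cells, against 678, 648 and 741 CPM in Regular cells (-1.01 ± 0.09). Cpt1a, which admits long-chain fatty acids to mitochondria, rose by 1.65 ± 0.19, with 38.7, 54.5 and 48.7 CPM in WT CM cells, against 16.4, 15.5 and 13.7 CPM in Regular cells, and averaged 69.9 CPM in undifferentiated cells. The other rise, that of the peroxisomal thiolase gene Acaa1b (1.45 ± 0.39), was not called without WT CM replicate 3 (1.16, adjusted p = 0.061001).

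**Figure D3:**
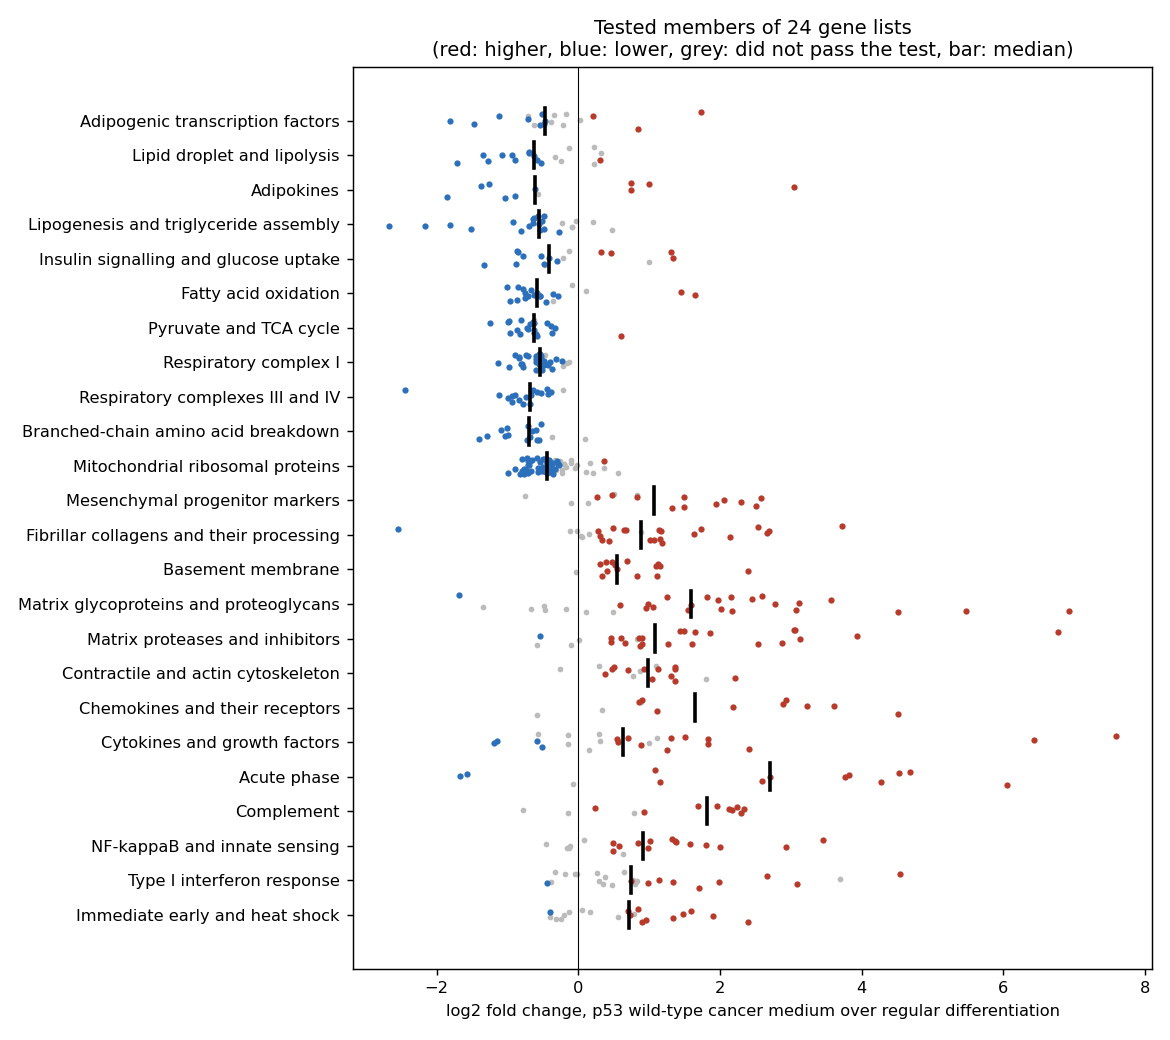
Each point is a tested member of 1 of 24 gene lists, placed by its log2 fold change of WT CM over Regular cells, with red for genes that rose, blue for genes that fell and grey for those that did not pass the test. Black bars are list medians, from -0.70 for branched-chain amino acid breakdown to 2.70 for acute phase genes.

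Most markers of mesenchymal progenitors were higher in WT CM cells. Ly6a, the gene of the stem cell antigen Sca-1, had 555, 549 and 503 CPM in WT CM cells, against 70.1, 92.8 and 102 CPM in Regular cells. Thy1 had 390, 365 and 401 CPM in WT CM cells, against 66.4, 59.0 and 79.0 CPM in Regular cells. They rose by 2.58 ± 0.11 and 2.51 ± 0.11, and Pdgfra, a growth factor receptor gene of adipocyte progenitors, by 1.94 ± 0.12. Of 16 tested progenitor markers, 11 rose and 0 fell. Against undifferentiated cells the list did not lie on 1 side, with 2 higher and 8 lower in WT CM cells. Thy1 averaged 385 CPM in WT CM and 441 CPM in undifferentiated cells and did not pass the test between them (adjusted p = 0.077), whereas Ly6a and Pdgfra were higher in WT CM than in undifferentiated cells (0.96 and 1.86).

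Most extracellular matrix genes rose in each of the 4 classes examined. Of 27 genes of fibrillar collagens and their processing, 20 rose and 1 fell, with a summed level of 25800 to 27800 CPM in WT CM libraries and 14800 to 15300 CPM in Regular libraries. Col1a2, a chain of type I collagen (chromosome 6, 4504814 to 4541544, plus strand), had 9375, 9101 and 9692 CPM in WT CM cells, against 4509, 4264 and 4703 CPM in Regular cells, a rise of 1.06 ± 0.06 (adjusted p = 2.67e-18). Col3a1 rose by 1.15 ± 0.10, Col16a1 by 2.53 ± 0.11 and Lox, which cross-links collagen, by 1.74 ± 0.10. Pcolce2, a collagen processing enhancer, fell by 2.54 ± 0.48, with 1.36, 1.92 and 1.32 CPM in WT CM cells, against 8.19, 8.15 and 11.3 CPM in Regular cells. All but 1 of 15 basement membrane genes rose, with a median of 0.55, the laminin gene Lama5 by 2.40 ± 0.29, and the exception was Col15a1 (adjusted p = 0.8799). For basement membrane genes the median against undifferentiated cells was 1.02, and for fibrillar collagens 0.32.

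Matrix glycoproteins had a larger median, 1.59, with 21 of 29 risen and 1 fallen. Mgp, an inhibitor of calcification, had 518, 484 and 449 CPM in WT CM cells, against 63.7, 57.5 and 52.9 CPM in Regular cells, and rose by 3.07 ± 0.10 (adjusted p = 9.41e-28). Dcn, the decorin gene, had 717, 898 and 953 CPM in WT CM cells, against 72.8, 57.5 and 89.7 CPM in Regular cells. The fibronectin gene Fn1 rose by 1.81 ± 0.08 to an average of 2742 CPM in WT CM cells, against 781 CPM in Regular cells, below the 4073 CPM of undifferentiated cells. Fmod, which encodes the collagen-binding proteoglycan fibromodulin, was the member that fell (-1.68 ± 0.21). Of 26 matrix proteases and inhibitors, 21 rose and 1 fell, Adam12 (-0.53 ± 0.20). Adam12 was not called with DESeq2 (adjusted p = 0.13936). Nor was it without Regular replicate 2 or 3 or WT CM replicate 1 or 2 (0.050121 to 0.18594). Timp1, an inhibitor of metalloproteases, had 233, 247 and 196 CPM in WT CM cells, against 26.4, 22.5 and 33.9 CPM in Regular cells. Serpine2, an inhibitor of thrombin and plasminogen activators, had 192, 174 and 214 CPM in WT CM cells, against 26.4, 21.0 and 20.8 CPM in Regular cells. Plat, a plasminogen activator that such inhibitors target, also rose (3.05 ± 0.21), so both activator and inhibitor genes were higher.

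Cytoskeletal genes and regulators of TGF-beta, BMP and Wnt signals were also examined. Of 18 contractile and actin genes, 12 rose and 0 fell, Cnn2, a calponin gene, by 2.21 ± 0.10 and Tpm1, a tropomyosin gene, by 1.37 ± 0.09. The median was 0.98 against Regular cells and -1.08 against undifferentiated cells. The smooth muscle actin gene Acta2, a myofibroblast marker, averaged 8.59 CPM in WT CM, 3.11 CPM in Regular and 61.1 CPM in undifferentiated cells. Among 24 genes of TGF-beta and BMP signalling, 8 rose (33.3%) and 5 fell (20.8%), against 17.2% and 15.4% of all tested genes. Besides Grem1, the receptor genes Tgfbr2 and Tgfbr3 rose by 1.18 and 1.05 ± 0.11, and the BMP target genes Id1 and Id2 fell by 0.93 ± 0.10 and 1.57 ± 0.37. Id1 had 200, 179 and 185 CPM in WT CM cells, against 322, 392 and 356 CPM in Regular cells. Of 15 Wnt genes, 3 rose (Wnt6, Fzd1 and Sfrp2) and 2 fell (Lrp5 and Tcf7l1), or 1 without Regular replicate 1, shares of 20.0% and 13.3% that are near the 17.2% and 15.4% of all tested genes. Wnt6, a ligand that can block adipogenesis, had 8.82, 23.1 and 17.6 CPM in WT CM cells, against 0.910, 1.94 and 2.38 CPM in Regular cells, and rose by 3.11 ± 0.42.

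For the acute phase, complement, chemokine and NF-kappaB genes, examples of promoters are shown first. Motifs for NF-kappaB (the kappaB consensus), for C/EBP factors (TTGCNNAA) and for AP-1 (TGANTCA) were searched on both strands in the 250 bases before each RefSeq gene start (GRCm38.p6), where 7562 of the 9378 tested genes matched 9651 windows. The 6 windows printed were chosen as examples that hold a match: Saa3 and Lcn2 from the acute phase list, Nfkbie, Tnfaip2 and Tlr2 from the NF-kappaB list, and Tnn, which had the largest rise with counts in every library. Serpina3n of the acute phase list and Bcl3 and Birc3 of the NF-kappaB list, which also rose, had 0 matches to any of the 3 motifs. Capitals mark motif matches: C/EBP in Saa3 and Lcn2, AP-1 and then kappaB in Nfkbie, kappaB in Tnfaip2, a pair of overlapping kappaB matches in Tlr2, and C/EBP and then kappaB in Tnn.
Saa3 (chr7:46715677-46715926, minus strand): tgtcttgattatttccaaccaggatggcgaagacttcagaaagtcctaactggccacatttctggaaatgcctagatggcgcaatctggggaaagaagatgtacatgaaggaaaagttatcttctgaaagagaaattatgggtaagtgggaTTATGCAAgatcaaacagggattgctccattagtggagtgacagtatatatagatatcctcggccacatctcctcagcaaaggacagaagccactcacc
Lcn2 (chr2:32387740-32387989, minus strand): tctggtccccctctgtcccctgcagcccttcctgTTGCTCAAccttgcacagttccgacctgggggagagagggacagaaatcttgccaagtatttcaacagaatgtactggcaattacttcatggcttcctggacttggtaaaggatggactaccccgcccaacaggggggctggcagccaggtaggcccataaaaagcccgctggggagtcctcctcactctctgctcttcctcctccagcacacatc
Nfkbie (chr17:45555450-45555699, plus strand): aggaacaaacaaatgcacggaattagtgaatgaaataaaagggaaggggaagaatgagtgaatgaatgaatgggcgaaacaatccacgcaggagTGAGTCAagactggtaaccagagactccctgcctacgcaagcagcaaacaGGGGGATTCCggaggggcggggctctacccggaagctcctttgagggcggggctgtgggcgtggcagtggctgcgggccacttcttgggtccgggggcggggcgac
Tnfaip2 (chr12:111442411-111442660, plus strand): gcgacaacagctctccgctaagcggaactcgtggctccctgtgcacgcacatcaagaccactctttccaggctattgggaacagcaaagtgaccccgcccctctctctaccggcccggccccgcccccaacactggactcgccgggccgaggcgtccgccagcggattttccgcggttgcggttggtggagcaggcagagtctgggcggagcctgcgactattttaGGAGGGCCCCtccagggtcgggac
Tlr2 (chr3:83841609-83841858, minus strand): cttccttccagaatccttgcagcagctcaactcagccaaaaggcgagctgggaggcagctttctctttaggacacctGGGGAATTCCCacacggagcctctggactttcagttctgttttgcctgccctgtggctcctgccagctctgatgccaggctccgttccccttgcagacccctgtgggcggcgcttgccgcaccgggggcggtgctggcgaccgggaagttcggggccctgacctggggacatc
Tnn (chr1:160153576-160153825, minus strand): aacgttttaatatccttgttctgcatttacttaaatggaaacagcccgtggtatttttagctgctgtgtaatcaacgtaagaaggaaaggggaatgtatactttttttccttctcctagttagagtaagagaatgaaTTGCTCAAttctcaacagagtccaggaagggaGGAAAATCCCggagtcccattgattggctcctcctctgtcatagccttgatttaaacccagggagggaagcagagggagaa

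Among all 9651 windows, 8.81% held a kappaB match, 7.49% a C/EBP match and 4.41% an AP-1 match. In the windows of genes that rose these shares were 10.8%, 8.36% and 6.61%, and in those of genes that fell 8.79%, 8.04% and 3.85%. Counted by gene, 10.4% of the tested genes with a window held a kappaB match in any window and 8.90% a C/EBP match. Of the 7 acute phase genes that rose and had a window, 4 held a C/EBP match, as did 4 of the 6 such complement genes. A kappaB match was held by 1 of these acute phase genes and 0 of these complement genes. Of the 9 such genes of the NF-kappaB list, out of 14 that rose, 4 held a kappaB match (Nfkbie, Tnfaip2, Tlr2 and Nfkb2). By window this was 6 of 11, of which 3 were alternative starts of Nfkb2. A C/EBP match was held by 0 of these 9 genes. Of the 6 chemokine list genes that rose and had a window, 2 held a kappaB match and 1 a C/EBP match. Among the 10 lipid droplet genes that fell and had a window, 2 held a kappaB match and 2 a C/EBP match. These matches describe letters in the windows, and binding was not measured.

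Acute phase genes, whose proteins the liver and inflamed tissues secrete, had the largest median of all lists described. Hp, the haptoglobin gene (chromosome 8, 109575128 to 109579172, minus strand), had 4642, 4677 and 4989 CPM in WT CM cells, against 315, 341 and 353 CPM in Regular cells. It rose by 3.82 ± 0.13 (adjusted p = 3.6e-13) and averaged 13.7 CPM in undifferentiated cells. Lcn2, which encodes the iron-scavenging lipocalin 2, had 417, 437 and 420 CPM in WT CM cells, against 30.9, 31.8 and 30.9 CPM in Regular cells. Saa3, whose C/EBP match is printed above, had 95.7, 103 and 78.6 CPM in WT CM cells, against 2.73, 1.16 and 0.594 CPM in Regular cells, and 856 CPM on average in KO CM cells. All WT CM libraries lay above all Regular libraries for these genes. The protease inhibitor gene Serpina3n had 1660, 1608 and 1435 CPM in WT CM cells, against 61.0, 64.1 and 57.6 CPM in Regular cells. The Serpina3, Saa and Orm families have near copies, so the split of reads among their members is uncertain.

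Of 13 tested acute phase genes, 10 rose and 2 fell, with a median of 2.70. The share that rose was 76.9%, against 17.2% of all tested genes. The genes that fell were Orm1 and Orm2, which encode orosomucoids. Orm1 had 78.1, 76.3 and 65.8 CPM in WT CM cells, against 220, 216 and 216 CPM in Regular cells, a fall of 1.58 ± 0.12. The fall of Orm2 was not called with DESeq2 (-1.65, adjusted p = 0.05789) or without WT CM replicate 3 (-1.18, 0.070193) or Regular replicate 2 (-1.42, 0.065103). Measured against undifferentiated cells, the median of the list was 6.41, with 12 of 13 genes higher in WT CM cells. Of 12 complement genes, 9 rose and 0 fell. C4b, a central complement component with a near copy, had 130, 163 and 122 CPM in WT CM cells, against 32.8, 33.8 and 26.7 CPM in Regular cells and 0.235 CPM on average in undifferentiated cells. The initiating protease genes C1s1 and C1ra rose by 2.34 ± 0.12 and 2.17 ± 0.12, and C3, on which all complement pathways converge, by 0.23 ± 0.07. C1s1 and C1ra have near copies and are uncertain.

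**Figure D4:**
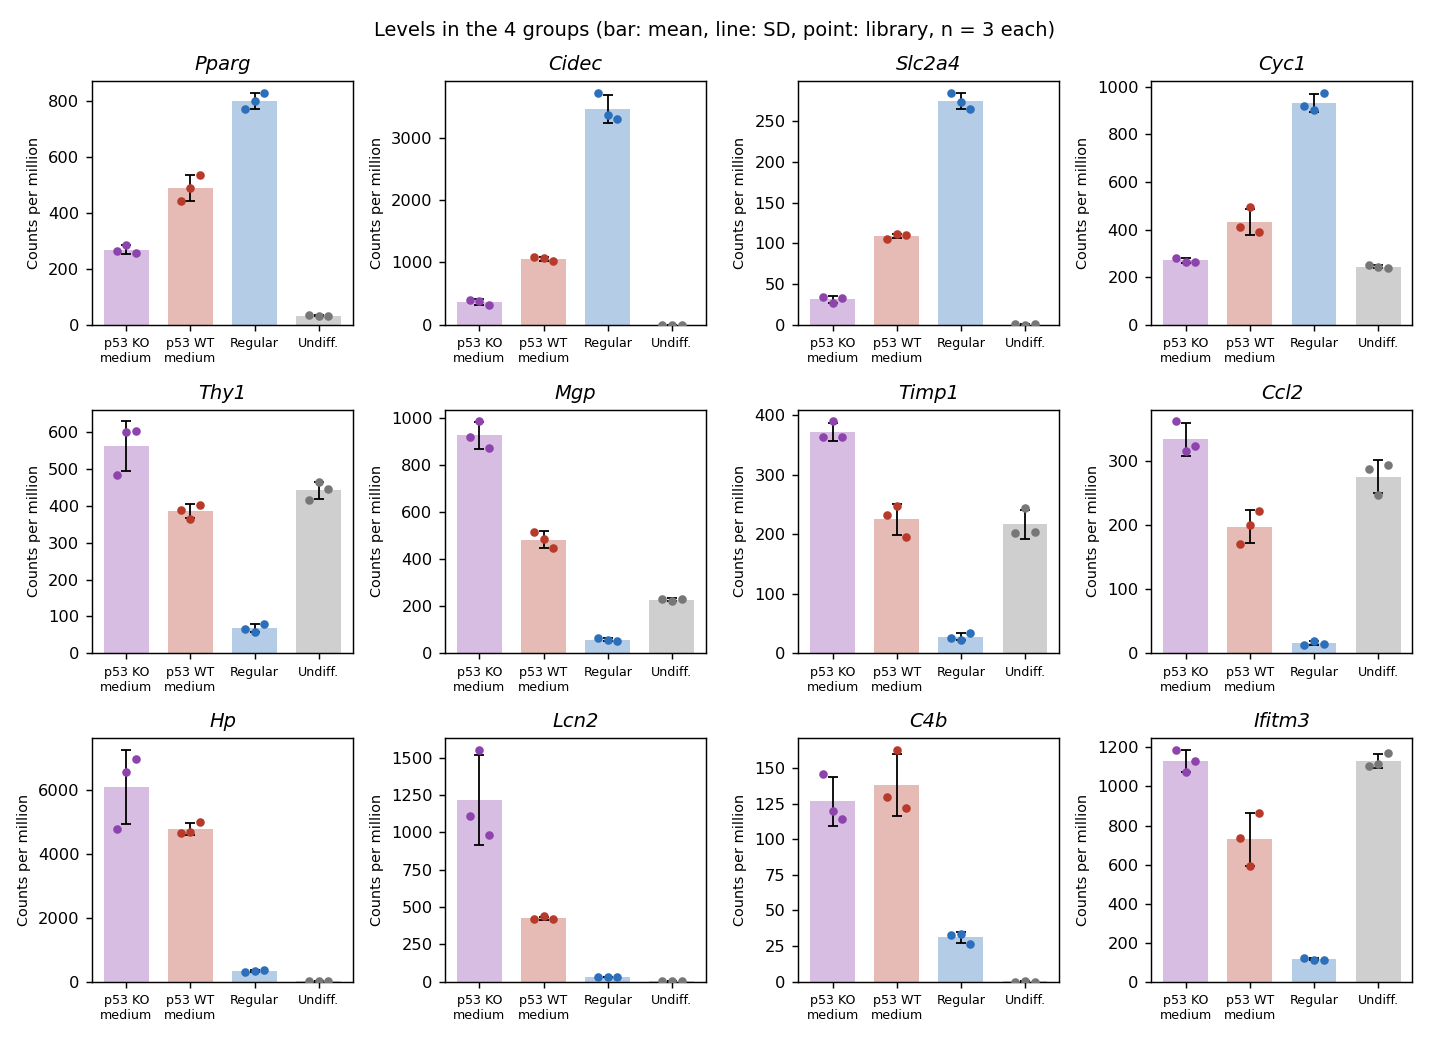
Levels of 12 genes (CPM, linear axes from 0) are shown in KO CM, WT CM, Regular and undifferentiated cells, with bars for means, lines for SD and points for the 3 libraries of each group. Pparg, Cidec, Slc2a4 and Cyc1 are lower in WT CM than in Regular cells, the other 8 genes are higher, and Hp, Lcn2 and C4b are near 0 in undifferentiated cells whereas Thy1, Timp1, Ccl2 and Ifitm3 are not.

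Many genes of chemokines, cytokines and the NF-kappaB list rose. Ccl2, which attracts monocytes, had 170, 201 and 222 CPM in WT CM cells, against 12.7, 19.0 and 14.8 CPM in Regular cells. It rose by 3.60 ± 0.14 (adjusted p = 7.45e-25) and was lower than in undifferentiated cells, which averaged 276 CPM (adjusted p = 7.665e-05). Cxcl12, a chemokine of stromal cells, had 1230, 1365 and 1371 CPM in WT CM cells, against 633, 574 and 630 CPM in Regular cells. Of 12 tested chemokine and chemokine receptor genes, 9 rose and 0 fell (1 without Regular replicate 2), with a median of 1.65, and the median against undifferentiated cells was -0.26. The neutrophil chemokine gene Cxcl5 rose by 3.23 ± 0.36 and averaged 20.3 CPM in WT CM and 58.5 CPM in KO CM cells. Of 24 cytokine and growth factor genes, 12 rose and 4 fell. Of all tested genes, 17.2% rose and 15.4% fell, so the share of the list that fell, 16.7%, was near that of all genes. Csf1, the macrophage growth factor gene, had 196, 219 and 253 CPM in WT CM cells, against 68.3, 58.6 and 64.1 CPM in Regular cells. The lymphangiogenic factor gene Vegfd rose by 1.25 ± 0.12, while Vegfa and Vegfb, which act on blood vessels and fatty acid transport, fell by 0.52 ± 0.09 and 0.59 ± 0.08. The growth factor gene Igf2 fell by 1.19 ± 0.22. The fall of the stress cytokine gene Gdf15 (-1.15 ± 0.38) was not called with DESeq2 (adjusted p = 0.108). Nor was it without Regular replicate 2 (-0.72, 0.29922) or WT CM replicate 2 (-1.04, 0.064443).

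Within the NF-kappaB and innate sensing list, 14 of 20 tested genes rose (70.0%) and 0 fell. Nfkbie, an inhibitor of NF-kappaB that is itself a target, had 14.9, 21.2 and 20.6 CPM in WT CM cells, against 1.82, 1.94 and 1.19 CPM in Regular cells, a rise of 3.45 ± 0.36. The cofactor gene Bcl3 had 96.4, 104 and 72.0 CPM in WT CM cells, against 15.5, 14 and 5.94 CPM in Regular cells. The adhesion molecule gene Vcam1 rose by 2.00 ± 0.16, Tnfaip2 by 1.37 ± 0.11, the pattern receptor gene Tlr2 by 1.80 ± 0.31 and the subunit gene Nfkb2 by 1.01 ± 0.12. Rela, the main transactivating subunit, averaged 99.8 CPM in WT CM and 109 CPM in Regular cells, and Nfkbia, a classical feedback target, averaged 163 CPM in WT CM and 158 CPM in Regular cells. Neither passed the test (adjusted p = 0.476 and 0.649).

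Interferon and antigen presentation genes changed in part. Of 25 tested interferon-induced genes, 9 rose (36.0%) and 1 fell (4.0%), against 17.2% and 15.4% of all tested genes. The number that rose was 5 with the 6 libraries alone, and also in a fit of the 2 groups without WT CM replicate 3. The number that fell was 2 with total counts and 0 with DESeq2, without Regular replicate 2 and without WT CM replicate 3. The list median, 0.75, was 0.32 with the 6 libraries alone and 0.40 in the fit of the 2 groups without WT CM replicate 3. A total of 21 were lower in WT CM than in undifferentiated cells, as were 20.7% of all tested genes. Ifitm3, a membrane protein gene that restricts virus entry, had 734, 592 and 865 CPM in WT CM cells, against 121, 112 and 113 CPM in Regular cells, and 1130 CPM on average in undifferentiated cells. Bst2, which encodes the virus-tethering protein tetherin, averaged 265 ± 10.9 CPM in WT CM and 80.2 ± 11.2 CPM in Regular cells (SD, n = 3 each). Of 17 genes of MHC class I presentation, 7 rose (41.2%) and 0 fell. H2-D1 and H2-K1, heavy chain genes with near copies, rose by 0.67 ± 0.09 and 0.64 ± 0.08. The light chain gene B2m had 814, 1109 and 1133 CPM in WT CM cells, against 585, 458 and 630 CPM in Regular cells, and did not pass the test (0.87 ± 0.42, adjusted p = 0.16). Among 13 immunomodulatory genes, 7 rose (53.8%) and 1 fell (7.69%), or 2 fell without Regular replicate 2 or WT CM replicate 1. The prostaglandin synthase gene Ptgs1 had 191, 158 and 163 CPM in WT CM cells, against 16.4, 22.1 and 19.6 CPM in Regular cells (3.09 ± 0.13). The galectin gene Lgals9 rose by 1.24 ± 0.10, and Vsir, an inhibitory checkpoint gene, fell by 1.06 ± 0.16 and had no counts in undifferentiated cells.

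Lists of genes that respond to the inducers differed: most PPARgamma targets fell, and the glucocorticoid and cAMP lists were mixed. Isobutylmethylxanthine, dexamethasone and rosiglitazone were given for the first 2 days only. Whether these genes still followed the inducer dose was not tested. Of 25 direct PPARgamma targets, targets of the factor that rosiglitazone activates, 18 fell and 2 rose, with a median of -0.52, and 24 were higher in WT CM than in undifferentiated cells. Besides Angptl4, the kinase gene Pdk4 rose (0.52 ± 0.19). Its call was lost with DESeq2 (adjusted p = 0.17147) or total counts (0.050495), and without Regular replicate 3 (0.1734) or WT CM replicate 3 (0.23435). Of 17 glucocorticoid-responsive genes, 6 rose (35.3%) and 5 fell (29.4%), against 17.2% and 15.4% of all tested genes. The number that rose was 3 with DESeq2, and the number that fell was 3 without WT CM replicate 2. Fkbp5, a widely used glucocorticoid target, had 230, 217 and 221 CPM in WT CM cells, against 193, 195 and 203 CPM in Regular cells, and did not pass the test (0.17 ± 0.09, adjusted p = 0.135). Zbtb16, another such target, did not pass either (0.37 ± 0.18, adjusted p = 0.119). Glul, the glutamine synthetase gene, fell by 1.26 ± 0.17, with 27.2, 43.0 and 40.4 CPM in WT CM cells, against 105, 72.2 and 96.8 CPM in Regular cells, while the metallothionein gene Mt2 rose by 0.86 ± 0.10. Of 14 cAMP-responsive genes, 4 rose (28.6%) and 2 fell (14.3%), against 17.2% and 15.4% of all tested genes. The 2 that fell were Irs2 and Rgs2. The call of Rgs2 was lost with DESeq2 (adjusted p = 0.21016) and when any of 5 libraries was left out (0.053726 to 0.20044). It was also lost without a filter and with the replicate block. Gem, a small GTPase gene, had 60.4, 62.8 and 67.6 CPM in WT CM cells, against 13.7, 11.6 and 19.0 CPM in Regular cells, and the phosphodiesterase gene Pde4b rose by 2.07 ± 0.32.

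The list of heat shock and immediate early genes had 20 tested members. In it 10 were called higher and 1 lower, the heat shock gene Hsph1 (-0.39 ± 0.13). The number that fell was 0 without Regular replicate 3 and in the fit of the 2 groups without WT CM replicate 3, 2 without WT CM replicate 2, with DESeq2 or with the replicate block, and 3 with total counts. Junb, a subunit of AP-1, had 969, 1006 and 822 CPM in WT CM cells, against 255, 332 and 339 CPM in Regular cells, and rose by 1.59 ± 0.10. Jun rose by 1.34 ± 0.10, Fos by 0.73 ± 0.12 and Ier3 by 1.90 ± 0.12, and each was also higher in WT CM than in undifferentiated cells. Of 19 genes of amino acid supply and the integrated stress response, 11 fell and 0 rose (1 without Regular replicate 1). Phgdh, which opens serine synthesis, had 82.8, 59.0 and 93.9 CPM in WT CM cells, against 211, 192 and 209 CPM in Regular cells, and Trib3, a stress-induced pseudokinase gene, fell by 0.95 ± 0.10. Proliferation genes were lower where they differed, with 8 of 25 mitotic and 6 of 24 replication genes fallen and 0 risen. Of the mitotic genes, 4 fell without WT CM replicate 1 and 5 with DESeq2 or without WT CM replicate 2 or Regular replicate 1. Ube2c, which drives exit from mitosis, averaged 40.4 CPM in WT CM, 69.9 CPM in Regular and 226 CPM in undifferentiated cells. Mki67, a proliferation marker, averaged 10.9 CPM in WT CM and 13.7 CPM in Regular cells and did not pass the test (adjusted p = 0.379).

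Other metabolic and housekeeping lists showed smaller or mixed differences. Among 21 p53 target genes in the recipient cells, 3 rose and 3 fell, 14.3% each and near the 17.2% and 15.4% of all tested genes. Leaving out Regular replicate 3 left 1 that rose, and leaving out Regular replicate 2 or WT CM replicate 2 left 1 that fell. Plk2, a p53-induced kinase gene, rose by 1.31 ± 0.22 and Sesn1, a stress-induced sestrin gene, fell by 0.67 ± 0.17. Cdkn1a, the gene of the cell cycle inhibitor p21, averaged 316 ± 31.6 CPM in WT CM and 292 ± 30.2 CPM in Regular cells (adjusted p = 0.389), and Mdm2, which encodes the ligase that degrades p53, averaged 3682 CPM in WT CM and 3536 CPM in Regular cells (adjusted p = 0.555). Of 25 glycolysis and hypoxia genes, 5 rose (20.0%) and 7 fell (28.0%), against 17.2% and 15.4% of all tested genes. The number that fell was 4 without Regular replicate 1 or WT CM replicate 2, and 8 rose in the fit of the 2 groups without WT CM replicate 3. Adm, a hypoxia-induced vasodilator peptide gene, rose by 2.36 ± 0.18, with 84.8, 94.9 and 65.8 CPM in WT CM cells, against 17.3, 15.1 and 15.4 CPM in Regular cells, whereas Egln3 and Bnip3, also hypoxia targets, fell by 0.79 ± 0.10 and 0.69 ± 0.09. Of 22 cholesterol genes, 8 fell, among them the epoxidase gene Sqle (-0.72 ± 0.10), and 0 rose (1 without WT CM replicate 1). Of 21 lysosomal genes, 11 rose and 1 fell. Gaa, a glycogen-digesting enzyme gene, rose by 0.77 ± 0.10, and Atp6v0d1, a proton pump subunit gene, fell by 0.50 ± 0.08. Of 26 antioxidant genes, 9 fell (34.6%) and 2 rose (7.69%), against 15.4% and 17.2% of all tested genes. The number that rose was 1 without WT CM replicate 3, where Nqo1 was lost (adjusted p = 0.058131), but 4 with DESeq2, with the 6 libraries alone and in the fit of the 2 groups without that library. The superoxide dismutase gene Sod1, which has processed copies, fell by 0.94 ± 0.09 and its secreted relative Sod3 rose by 0.77 ± 0.09. Of 74 cytosolic ribosomal protein genes, 26 rose and 1 fell, or 40 rose without WT CM replicate 3 and 5 fell without WT CM replicate 1 (2 without Regular replicate 3). These genes have many processed copies and are uncertain. Of 22 detoxification genes, 10 fell (45.5%) and 5 rose (22.7%), Cyp7b1, an oxysterol hydroxylase gene, by 3.76 ± 0.27. Of 21 genes of ER chaperones and the unfolded protein response, 3 rose and 2 fell, 14.3% and 9.52%, against the 17.2% and 15.4% of all tested genes. The number that fell was 1 with DESeq2 or without Regular replicate 1 or WT CM replicate 1, and 0 without Regular replicate 2. The calreticulin gene Calr rose by 0.48 ± 0.08 and the disulfide isomerase gene Pdia3 by 0.74 ± 0.11.

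Markers of adipocytes and of other cell types were also examined. All 12 adipocyte markers were measured, and 11 fell, with summed levels of 18200 to 18500 CPM in WT CM libraries and 28100 to 30400 CPM in Regular libraries, against 145 to 172 CPM in undifferentiated libraries. Of 18 epithelial and mammary tumour markers, 6 were among the genes analysed here, each of which has at least 6 counts in its highest library, and Epcam, Krt5, Krt14 and Cdh1 were not among them. Their sums were 38.6 to 47.5 CPM in WT CM libraries and 49.1 to 69.5 CPM in Regular libraries. Krt8 had 4.07, 4.49 and 2.19 CPM in WT CM cells, against 16.4, 26.8 and 19.0 CPM in Regular cells, and Krt18 also fell, while Krt7 and Trp63 rose. Of 17 macrophage and leukocyte markers, 6 were analysed, with sums of 61.4 to 71.3 CPM in WT CM and 27.3 to 34.4 CPM in Regular libraries, and 185 to 210 CPM in undifferentiated libraries. Cd14, a lipopolysaccharide coreceptor gene, had 50.9, 43.6 and 39.1 CPM in WT CM cells, against 10.0, 13.2 and 20.2 CPM in Regular cells. The leukocyte markers Ptprc and Adgre1 were not among the genes analysed. Csf1r and Aif1 averaged 2.29 and 1.33 CPM in WT CM and 1.59 and 1.05 CPM in Regular cells, too few for the test. The calls of Lyz2 and Cd74, the other members that rose, were lost with DESeq2 (adjusted p = 0.092877 and 0.09962) and without Regular replicate 2 or 3 or WT CM replicate 2. Cd14 is also a member of the NF-kappaB list and moved with the chemokine genes, and the part of other cell types in those results was not tested.

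Few markers of the other lineages were measured. Of 12 brown and beige fat markers, 3 were tested. Cox8b fell by 2.44 ± 0.25, with 8.82, 5.77 and 7.90 CPM in WT CM cells, against 37.3, 38.0 and 48.1 CPM in Regular cells, Cox7a1 fell by 0.78 ± 0.17, and Tnfrsf9 rose as given above. Among 13 muscle and bone markers, 2 were tested, and the call of Runx2 (0.67 ± 0.22) was lost with DESeq2 (adjusted p = 0.060766) and without Regular replicate 1 or 3 or WT CM replicate 1. Of 11 endothelial markers, 1 was tested, Egfl7, whose fall of 0.95 ± 0.35 was lost with DESeq2 (adjusted p = 0.12471) and without any of 4 libraries (0.053492 to 0.15344).

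Set against both neighbouring states, the lists fell into different arrangements. For lipid droplets, adipokines, lipid synthesis, insulin signalling, fatty acid oxidation and the respiratory chain, the median was below 0 against Regular cells and above 0 against undifferentiated cells. Progenitor, contractile, chemokine, interferon and matrix glycoprotein lists had medians above 0 against Regular cells and below 0 against undifferentiated cells. The interferon list was at 0.75 (0.32 with the 6 libraries alone) and -2.24, and matrix glycoproteins at 1.59 and -0.20. Acute phase genes, complement genes (1.82 and 1.83), basement membrane genes and immediate early and heat shock genes (0.71 and 0.75) had medians above 0 in both. So did the NF-kappaB list (0.92 and 0.55), fibrillar collagens (0.88 and 0.32) and matrix proteases and inhibitors (1.08 and 0.15). Cytokines (0.63 and 0.18), MHC class I genes (0.49 and 0.43) and further lists did too. Against undifferentiated cells, medians such as 0.15 and 0.18 lie near the 0.06 over all tested genes. List medians against undifferentiated cells were not computed with libraries scaled by total counts, so the sign of small ones is uncertain. In KO CM cells, the median difference from WT CM cells was -0.93 for lipid droplet genes, where 13 of 19 were lower and 0 higher. For chemokine genes it was 0.77, with 7 of 12 higher and 0 lower. Of 13 acute phase genes, 7 were higher and 2 lower in KO CM cells, and of 12 complement genes 5 and 0. Over all tested genes, 5.86% were higher and 6.65% lower in KO CM than in WT CM cells.

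**Figure D5:**
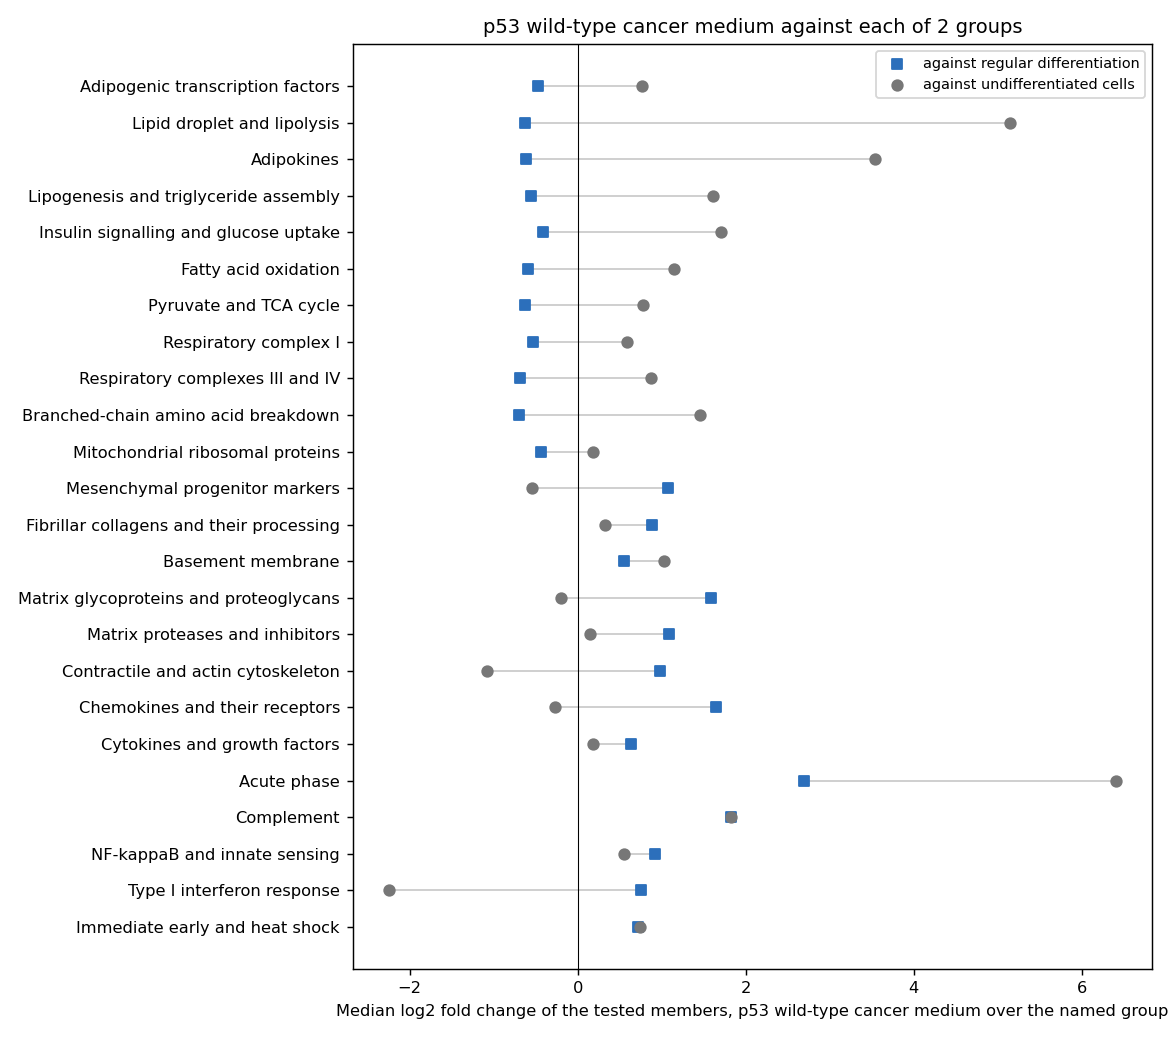
For each of 24 gene lists, the blue square is the median log2 fold change of WT CM over Regular cells and the grey circle that of WT CM over undifferentiated cells. The 11 lists from adipogenic factors to mitochondrial ribosomal proteins have the square below 0 and the circle above 0. The circle of mitochondrial ribosomal proteins is at 0.18, beside 0.06 over all tested genes. Acute phase genes have both above 0, at 2.70 and 6.41. The comparisons share the WT CM libraries, and list medians against undifferentiated cells were not computed with libraries scaled by total counts.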

How the data were processed

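RNA of 12 libraries was measured by MARS-seq. Per the submitters' processing notes, cutadapt, HTSeq, DESeq2 and the mouse build mm10 were used, without versions, and the aligner, annotation and strand setting are not given in the sources used here. The deposited workbook gives, per the file headers, raw counts of UMIs for each gene in each library, together with the authors' log2 fold changes and p-values for 6 comparisons. From these, only the authors' calls for WT CM and Regular cells were used. A total of 24 columns of normalized values were not used. Each of the 11022 genes has at least 6 counts in its highest library.

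The test used edgeR 4.0.16 under R 4.3.3. After filterByExpr, 9378 genes remained. With TMM scaling, edgeR's quasi-likelihood fit (robust) gave each group its own mean over all 12 libraries, and the groups shared 1 estimate of the spread (common biological coefficient of variation 9.38%). Benjamini-Hochberg adjusted p-values under 0.05 were called. CPM use TMM-scaled library sizes, and a group without counts is bounded by 3 counts, a floor of 0.565 CPM in WT CM and 0.56 CPM in Regular cells, which covers counting error only. The fit was tested on simulated data. No set test was run, and lists are described by counts and medians.

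The members and gene lists were chosen with earlier results of these data known. The naming rule covers the 12 largest called changes in each direction with at least 5 CPM in the higher group and no overlap. It also covers the 6 largest differences in CPM in each direction, and up to 3 called members per list and direction with the smallest p. Not every gene it gives is described, and Vim and Fth1, of the largest rises in CPM, are among those left out. Other list members named were chosen after their values were seen. Coordinates are from GENCODE vM21 on GRCm38. Alternatives were total-count scaling, DESeq2 1.42.0, no filter, only the libraries compared, a replicate block, leaving out each library and, chosen after seeing the data, a fit of the 2 groups without WT CM replicate 3.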

Additional observations from a re-analysis of the deposited data

How the results depend on the processing

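The counts of genes that rose and fell between WT CM and Regular cells stayed within 1.5 times of 1614 and 1441 under every alternative run. They were 1486 and 1622 with total counts, 1695 and 1450 without a filter, 1243 and 1131 with DESeq2 (the same counts as in the authors' deposited table, so not a separate check), 1562 and 1395 with the 6 libraries alone, and 1494 and 1369 in the fit of the 2 groups without WT CM replicate 3. Leaving out 1 library gave 1373 to 1524 higher and 1169 to 1366 lower. Libraries with equal replicate numbers showed no shared deviation (correlations of deviations 0.00201, -0.0504 and -0.0197), which cannot exclude that they were paired. With the replicate block 1598 genes rose and 1444 fell. Against undifferentiated cells, 3000 genes were lower with total counts, against 1942, and leaving out 1 library gave 2168 to 2528 higher and 1724 to 2029 lower. Between KO CM and WT CM cells, 357 genes were higher with total counts, against 550, 413 were lower with DESeq2, against 624, and leaving out 1 library gave 377 to 510 higher and 379 to 561 lower, the 379 without KO CM replicate 3. The median of the glycolysis and hypoxia list, -0.01, was 0.00 with the 6 libraries alone and 0.01 without Regular replicate 1 or in the fit of the 2 groups without WT CM replicate 3, and -0.18 without WT CM replicate 1. That of the epithelial markers, -0.10, was 0.19 without Regular replicate 3, -0.23 without Regular replicate 1, 0.10 without WT CM replicate 3 and 0.11 in the fit of the 2 groups without it. The median of the interferon list, 0.75, was 0.32 with the 6 libraries alone and 0.40 in the fit of the 2 groups without WT CM replicate 3. The cause was not tested. No gene named by the rule reversed. Genes with few UMIs limit the precision, and no test was made of genes that the filter left out.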
